A study of Mus musculus with 12 samples.

Results

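The genes described here are 10 genes of the endoplasmic reticulum (ER) folding machinery, Hspa5, Hsp90b1, Calr, Canx, Pdia3, Pdia4, Pdia6, Dnajb9, Xbp1 and Sdf2l1, chosen by name from the 16172 genes with at least 1 cytosine in the lists of 12 RNA bisulfite sequencing (RNA BS-seq) libraries. The libraries were made from neural stem cells (NSCs) of the adult subventricular zone of male wild-type C57BL/6 mice aged 6 to 8 weeks. The cells grew as a monolayer with EGF and bFGF for 4 days. Folic acid in the medium was low (LF, 1.5 μM), medium (MF, 10 μM) or high (HF, 80 μM), and poly(A) RNA was taken either from whole cells (total mRNA: LF, MF, HF) or from the polysome fractions of a sucrose gradient (polysome mRNA: pLF, pMF, pHF), with 2 libraries in each of the 6 groups. Cells for the gradient had been treated with cycloheximide to hold ribosomes in place. Neural stem cell markers were present: Nes, Vim, Fabp7 and Slc1a3 were listed in 12 of 12 libraries, while Sox2 was not analysed here. Of the markers of other cell types, the neuronal Rbfox3, Snap25 and Syt1, the oligodendrocyte Mog, the microglial Aif1 and Csf1r, the endothelial Cldn5 and the fibroblast Dcn were listed in 0 libraries, but Col1a1, Col1a2, Acta2 and Pdgfrb of fibroblasts and mural cells, Stmn2 of neurons and Cx3cr1 of microglia were listed in 12, with Col1a2 at 5.49 to 13.3 and Col1a1 at 0.0315 to 0.226 times the coverage of the median gene.

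Proteins that enter the ER are folded there by chaperones before they are exported. When unfolded proteins accumulate, 3 sensors in the ER membrane start the unfolded protein response, which raises transcription of the chaperone genes and lowers general translation. The classical target of this response is Hspa5, which encodes BiP. BiP binds unfolded chains and, while free of them, holds the sensors inactive. Hsp90b1 encodes GRP94, the Hsp90 of the ER. Calr and Canx encode calreticulin and calnexin, the soluble and the membrane-bound lectins that hold glycoproteins during folding. Pdia3, Pdia4 and Pdia6 encode protein disulfide isomerases, of which Pdia3 works with the lectins. Dnajb9 and Sdf2l1 encode co-chaperones of BiP, and Xbp1 encodes a transcription factor of the response whose mRNA is spliced in the cytoplasm by the sensor IRE1.

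Transcription factors of this response bind the ER stress response element in promoters. The element consists of the boxes CCAAT and CCACG with 9 free bases between them, and was searched on both strands in the RefSeq promoter windows of GRCm38.p6, each from 250 bases before to 50 bases after a transcription start. It was found for 5 of the 10 genes and for 37 of all 27025 genes with a window, or 0.137%. The 10 genes were chosen by name as ER folding genes, and this response raises transcription of chaperone genes, so the count is not independent of that choice. The matches are printed below as a sequence feature of these 5 genes. The fixed bases are in capitals and the free ones in lower case, in the orientation of the element.
Hspa5: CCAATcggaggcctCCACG
Hsp90b1, distal: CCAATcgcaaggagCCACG
Hsp90b1, proximal: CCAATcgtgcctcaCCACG
Calr: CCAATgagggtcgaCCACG
Canx: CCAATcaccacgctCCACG
Pdia6: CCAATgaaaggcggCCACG
The Hspa5 match lies at chr2:34772025-34772043 on the + strand and that of Pdia6 at chr12:17266491-17266509 on the + strand. The Hsp90b1 matches lie at chr10:86705638-86705656 on the - strand and chr10:86705533-86705551 on the + strand. The Calr match lies at chr8:84847075-84847093 on the + strand, opposite to the gene, and the Canx match at chr11:50325800-50325818 on the - strand. When the last base was left free, a change made after the first result was seen, the windows of Pdia3 and Pdia4 also matched (116 genes of all, 0.429%):
Pdia3: CCAATcggcggctgCCACa
Pdia4: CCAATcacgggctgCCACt
These lie at chr2:121413873-121413891 and chr6:47813602-47813620, both on the + strand. The second element of the response, ATTGG and CCACG with 1 free base between them, was found for 0 of the 10 genes and 12 of all. Of the 48 other ER folding genes with a window, 5 held the first element, and of 35 chaperones of the cytosol and mitochondria, 0 held it. A match is a run of letters and does not show binding. In the GRCm38 annotation the genes themselves lie at chr2:34771970-34777547 (Hspa5), chr10:86690209-86705509 (Hsp90b1), chr8:84841850-84846934 (Calr), chr11:50293961-50325673 (Canx), chr2:121413775-121438687 (Pdia3), chr6:47796141-47813430 (Pdia4), chr12:17266545-17284770 (Pdia6), chr12:44205559-44210326 (Dnajb9), chr11:5520659-5525893 (Xbp1) and chr16:17130138-17132383 (Sdf2l1). Hspa5, Pdia3, Pdia6 and Xbp1 are on the + strand and the others on the - strand. These spans follow GENCODE while the promoter windows use RefSeq starts, and the matches of Hspa5 and Pdia3 lie inside the printed spans.

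Bisulfite turns unmethylated cytosines into uracil, which is read as T, so that a cytosine read as C is a candidate for 5-methylcytosine (m5C). Each list gives, for a cytosine, the reads that cover it and the reads that kept a C, and a cytosine is listed only where 10 or more reads cover it and 1 or more kept the C. The lists held 797260 to 2071190 cytosines. Only those with the state M in the lists were used, 97.7% to 99.7% of a list, with a summed coverage of 1186213013 to 2857966129. Of these, the 12 libraries held 4469 different cytosines in the 10 genes. The median coverage over a gene's cytosines with a level below 0.05 was taken as a measure of how much of its mRNA was read. It was divided by the median over the 5750 genes with at least 20 such cytosines in each library, and a scaled coverage of 1 is therefore that of the median gene. As it is read at single positions, it does not grow with the length of the transcript. The study calls the libraries of a group biological replicates. The labels only number them and do not say that they came from separate cultures or animals, so the p-values measure the spread between these libraries. In such bulk RNA, fewer cells with a transcript and less transcript in each cell cannot be told apart.

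Some libraries stood apart. Over the 5750 genes, the log2 scaled coverage of the LF and MF libraries correlated with r = 0.897 to 0.908 across the 2 concentrations, but those labelled HF correlated with them only with r = 0.713 to 0.750. The second pHF library held 38353 cytosines with a level above 0.9, against 1102 to 3465 in the other libraries. Averages over the 3 concentrations are therefore also given without the 4 libraries labelled HF and pHF, while comparisons of 80 μM with other groups rest on them.

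Of the 10 genes, 7 were covered above the median gene in each library: Calr at 5.92 to 16.9 times its coverage, Hsp90b1 at 1.34 to 11.7, Pdia6 at 2.79 to 11.2, Hspa5 at 2.36 to 8.02, Pdia3 at 4.42 to 8.00, Pdia4 at 2.18 to 5.96 and Canx at 2.41 to 5.38. Calr was above 95.3% to 99.1% of all genes tested in every library, while Hspa5 ranged from above 77.6% to above 97.2% and Hsp90b1 from above 61.0% to above 98.3%. Calr lay above Canx, Hspa5 and Pdia4 in each of the 12 libraries and Pdia3 above Canx, while the order of the other pairs changed between libraries. Calr was not the highest in each library, as Hsp90b1 and Pdia3 lay above it in both HF libraries and Pdia6 in pLF replicate 2 and pMF replicate 2. The transcription factor and the co-chaperones were far lower. Xbp1 lay between 0.174 and 1.56, Sdf2l1 between 0.179 and 0.748, and Dnajb9 between 0.0675 and 0.288. Xbp1 rested on 33 to 277 cytosines, Sdf2l1 on 5 to 69 and Dnajb9 on 2 to 60, so Sdf2l1 and Dnajb9 did not reach 20 cytosines in each library and were not tested at that minimum. The other 8 genes were tested.

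**Figure D1:**
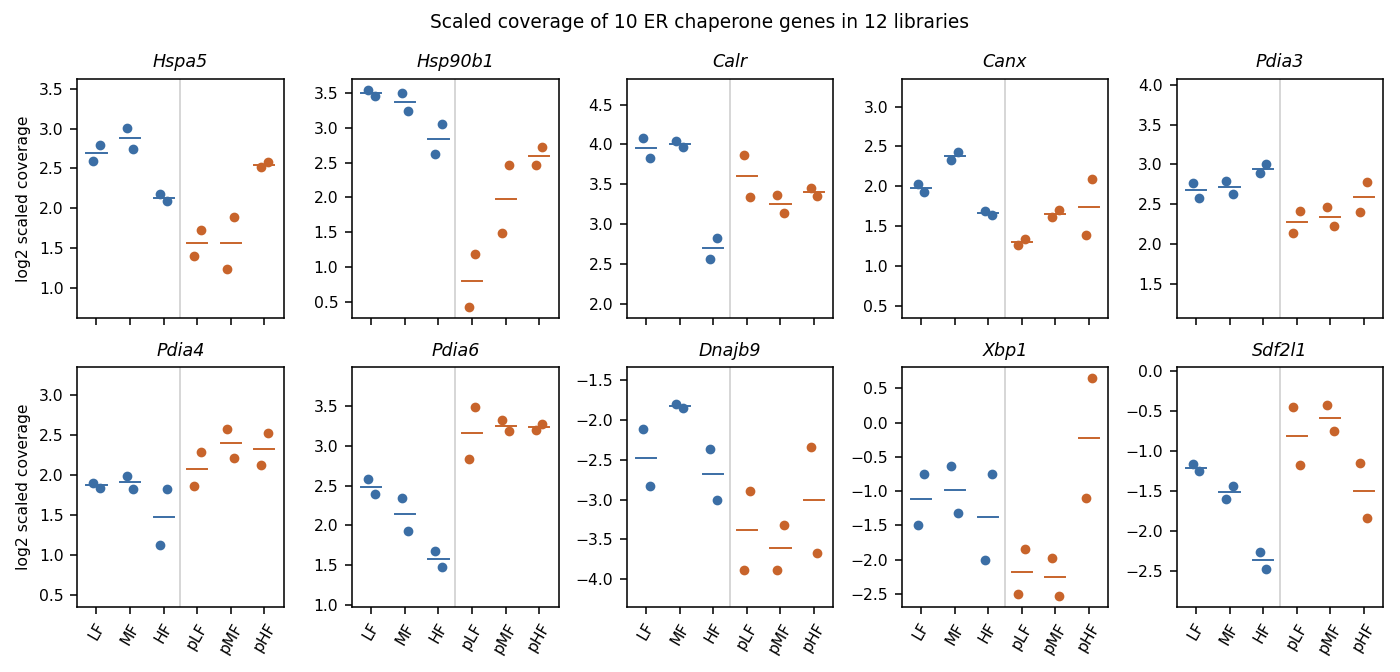
Scaled coverage of the 10 genes on a log2 scale (0 is the median gene) in the 12 libraries, total mRNA in blue and polysome mRNA in orange. Points are single libraries and lines are group means; each panel has its own axis. Hspa5 and Hsp90b1 were lower in pLF and pMF than in LF and MF, while Pdia6 was higher in every polysome library than in every total library.

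The comparison of polysome with total mRNA asks which transcripts were more or less read in the pooled polysome fractions than in the whole cell. Averaged over the 3 folic acid concentrations, 6 of the 8 genes tested passed the test, beside 35.1% of all genes (limma, Benjamini-Hochberg adjusted p below 0.05). Hsp90b1, Hspa5, Canx and Pdia3 fell and Pdia4 and Pdia6 rose. The called genes moved in both directions, and the median log2 difference of the 8 was -0.38 against 0.03 over all genes. That median was 0.11 with mean coverage (3 called higher and 2 lower, beside 59.6% of all genes) and -0.02 with each position's own level removed by median polish (2 higher and 3 lower, beside 66.5%), so its sign depended on the measure. Without the 4 libraries labelled HF and pHF, 6 were called as well (33.4% of all genes), with Calr (-0.55) and Xbp1 (-1.17) lower in place of Pdia3 and Pdia4. Leaving out 1 library gave 3 to 5 called genes, with 26.1% to 37.2% of all genes called, and 3 without LF replicate 1 or 2, MF replicate 1 or 2, HF replicate 1 or pMF replicate 1 (26.1% to 32.1% of all genes).

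Pdia6, a disulfide isomerase that also dampens the sensors of the response, showed the clearest shift. Its scaled coverage was 5.97 and 5.27 (LF), 5.08 and 3.83 (MF), and 3.21 and 2.79 (HF). It was 7.12 and 11.2 (pLF), 10.0 and 9.05 (pMF), and 9.13 and 9.69 (pHF). The lowest polysome library lay above the highest total library. The log2 difference was 1.14 ± 0.15 (SE, adjusted p = 0.000432, limma), and it passed the threshold under all 24 alternatives tried, between 0.50 and 1.40, and was 0.89 without the 4 libraries labelled HF and pHF. It rose at 10 μM (1.11 ± 0.25, adjusted p = 0.0209, limma) and at 80 μM (1.65 ± 0.25, adjusted p = 0.00503, limma), while at 1.5 μM it was 0.67 ± 0.25 (adjusted p = 0.105, limma).

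Hspa5 was lower on polysomes at 1.5 and 10 μM. Its scaled coverage was 6.05 and 6.95 (LF), 8.02 and 6.72 (MF), and 4.52 and 4.26 (HF). On polysomes it was 2.64 and 3.32 (pLF), 2.36 and 3.72 (pMF), and 5.72 and 5.97 (pHF). The pLF and pMF libraries lay below all total libraries, whereas both pHF libraries lay above both HF libraries. The log2 difference was -1.13 ± 0.26 at 1.5 μM (adjusted p = 0.0188, limma) and -1.31 ± 0.26 at 10 μM (adjusted p = 0.0123, limma). At 80 μM it was 0.41 ± 0.26 (adjusted p = 0.302, limma). The average of the 3 was -0.68 ± 0.15 (adjusted p = 0.00630, limma), and -1.22 without the 4 libraries labelled HF and pHF. This call depended on how coverage was summarised. With median polish, an alternative chosen after the data were seen, the averaged difference of Hspa5 was 0.05 (adjusted p = 0.718, limma). It was -0.14 with mean coverage (adjusted p = 0.351, limma) while at cytosines listed in all 12 libraries, scaled to the median of the 657 genes tested there, it held (-0.44, adjusted p = 0.000353, limma).

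Hsp90b1 had the largest difference on the main measure. Its scaled coverage was 11.7 and 11 (LF), 11.3 and 9.48 (MF), and 6.17 and 8.32 (HF). It was 1.34 and 2.27 (pLF), 2.80 and 5.50 (pMF), and 5.50 and 6.58 (pHF). Groups of the same concentration did not overlap at 1.5 and 10 μM but did at 80 μM. The log2 difference was -2.70 ± 0.35 at 1.5 μM (adjusted p = 0.00291, limma), -1.40 ± 0.35 at 10 μM (adjusted p = 0.0298, limma) and -0.25 ± 0.35 at 80 μM (adjusted p = 0.672, limma). The size depended on the positions and on the genes used for scaling. Over the 105 cytosines of the gene listed in all 12 libraries, scaled to the 657 genes, the averaged difference was -0.15 (adjusted p = 0.0788, limma), against -1.45 ± 0.20 (adjusted p = 0.000663, limma) over all and -2.05 (adjusted p = 0.00218, limma) without the 4 libraries labelled HF and pHF. At the shared cytosines of its CDS, coverage scaled to the 5750 genes was 8.83 to 14.8 in total and 11.4 to 21.5 in polysome mRNA, ranges that overlapped. There pLF replicate 1 (11.4) lay below both LF libraries (13.9 and 14.4) and pLF replicate 2 (18.8) above them. At 10 μM the groups overlapped (14.0 and 14.8 in MF, 14.4 and 15.9 in pMF). At 80 μM both pHF libraries (21.5 and 13.6) lay above both HF libraries (9.27 and 8.83). The 7 shared 3′UTR cytosines were covered at 14.6 to 17.9 in total and 21.9 to 35.1 in polysome mRNA, without overlap and opposite in direction to the called fall.

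On the main measure the lectins and the other isomerases had smaller averaged differences than Hsp90b1, Hspa5 and Pdia6, but at cytosines listed in all 12 libraries Canx (-1.0) and Pdia3 (-0.73) had larger ones than these 3 genes. Canx had 4.09 and 3.80 (LF), 5.02 and 5.38 (MF), and 3.23 and 3.11 (HF), 2.41 and 2.53 (pLF), 3.06 and 3.25 (pMF), and 2.62 and 4.25 (pHF). Its averaged log2 difference was -0.44 ± 0.15 (adjusted p = 0.0394, limma). It was -0.70 (adjusted p = 0.00672, limma) without the 4 libraries labelled HF and pHF. Calr, its soluble relative, had 16.9 and 14.2 (LF), 16.5 and 15.6 (MF), and 5.92 and 7.11 (HF), 14.6 and 10.1 (pLF), 10.3 and 8.80 (pMF), and 10.9 and 10.2 (pHF). The HF libraries were the lowest of all, and every LF and MF library lay above every polysome library other than pLF replicate 1. Calr differed by -0.76 ± 0.22 at 10 μM (adjusted p = 0.0473, limma) and by 0.70 ± 0.22 at 80 μM (adjusted p = 0.0599, limma). The former was 0.06 with mean coverage in place of the median (adjusted p = 0.822, limma), and missed the threshold without the 4 libraries labelled HF and pHF (adjusted p = 0.0605, limma). The call of Calr at 10 μM was kept under 11 of 25 alternatives, against 21 for Hspa5 and 21 for Hsp90b1 at that concentration.

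Pdia3, the isomerase of the lectin cycle, had 6.83 and 5.99 (LF), 6.95 and 6.20 (MF), and 7.41 and 8.00 (HF), 4.42 and 5.33 (pLF), 5.51 and 4.70 (pMF), and 5.27 and 6.84 (pHF). Its averaged log2 difference was -0.37 ± 0.12 (adjusted p = 0.0405, limma). Without the 4 libraries labelled HF and pHF it was -0.38 (adjusted p = 0.0707, limma). At each concentration both polysome libraries lay below both total libraries. Pdia4 had 3.73 and 3.59 (LF), 3.99 and 3.56 (MF), and 2.18 and 3.56 (HF), 3.63 and 4.91 (pLF), 5.96 and 4.66 (pMF), and 4.35 and 5.79 (pHF), and differed by 0.51 ± 0.17 (adjusted p = 0.0386, limma), or 0.35 (adjusted p = 0.138, limma) without the libraries labelled HF and pHF. At 10 and 80 μM its polysome libraries lay above the total ones, while at 1.5 μM they overlapped. Of the 12 fits that left out 1 library, 10 lost the call of Canx, 10 that of Pdia3 and 8 that of Pdia4.

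Xbp1 had 0.250 to 0.643 in total mRNA and 0.174 to 0.469 on polysomes, apart from 1.56 in the second pHF library. Its averaged log2 difference was -0.39 ± 0.37 (adjusted p = 0.441, limma). Its standard error was larger than that of the other 7 genes. Sdf2l1 had 0.179 to 0.446 in total and 0.279 to 0.748 in polysome libraries, and with the minimum lowered to 5 cytosines it differed by 0.78. At that minimum 9 members were tested in the averaged comparison and 5 were called, 3 higher and 2 lower (33.4% of all genes). Dnajb9 had 0.125 to 0.288 in total and 0.0675 to 0.197 in polysome libraries and was not tested.

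**Figure D2:**
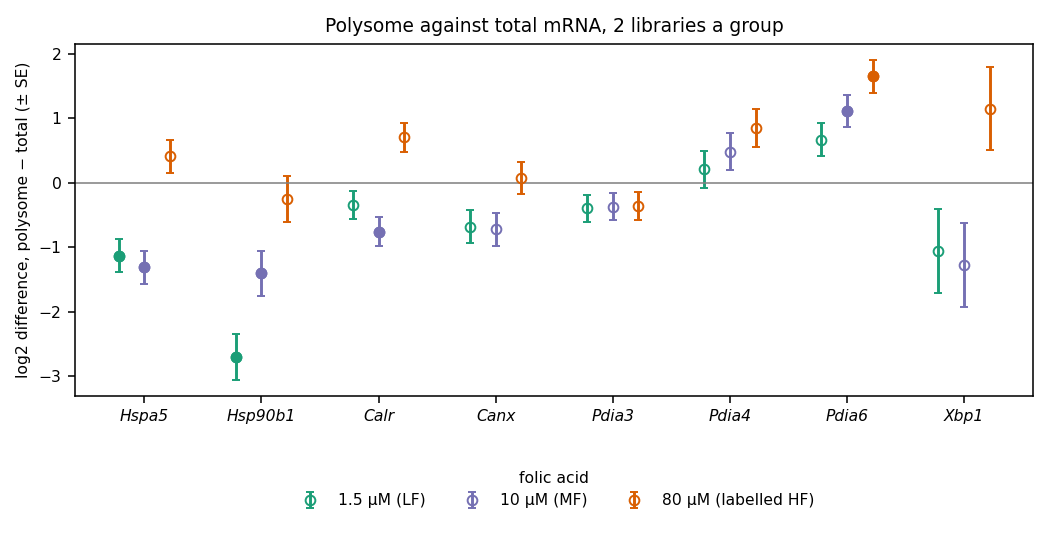
Log2 difference of scaled coverage between polysome and total mRNA at each folic acid concentration for the 8 genes tested, with the standard error from limma (2 libraries in each group). Filled points passed an adjusted p of 0.05. At 80 μM the points of Pdia3 lie near those at 1.5 and 10 μM (-0.36 against -0.40 and -0.37), while those of the other 7 genes lie above them.

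At single concentrations, 2 of the 8 genes were called at 1.5 μM (14.3% of all genes), 4 at 10 μM (13.6% of all genes) and 1 at 80 μM (13.2% of all genes). At 1.5 μM these were Hspa5 and Hsp90b1, at 10 μM Hspa5, Hsp90b1, Calr and Pdia6, and at 80 μM Pdia6. At 1.5 μM, 1 gene was called without LF replicate 1 or 2 (2.63% and 3.17% of all genes). At 10 μM, 0 were called without MF replicate 1, MF replicate 2 or pMF replicate 1 (1.57%, 3.2% and 4.54% of all genes), and 2 without pMF replicate 2 (5.95%). The share of all genes thus fell in the same fits. At 80 μM, 2 were called without pLF replicate 1 or 2 (17.6% and 17.5% of all genes).

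Whether the polysome-total difference itself changed with folic acid was tested as an interaction. Between 1.5 and 10 μM, limma called 0 of the 8 genes (0% of all genes), 1 reached an unadjusted p below 0.05, and edgeR called 0. Between 80 and 10 μM, limma again called 0 (0.087% of all genes), 4 reached an unadjusted p below 0.05, and edgeR called 0. Without pLF replicate 1 or pLF replicate 2, limma called 2 (3.41% and 3.36% of all genes). The largest differences were Xbp1 at 2.42 ± 0.91 (adjusted p = 0.188, limma), Hspa5 at 1.72 ± 0.36 (adjusted p = 0.0608, limma) and Calr at 1.46 ± 0.31 (adjusted p = 0.0608, limma). With position-adjusted coverage, chosen after the data were seen, 6 of the 8 passed: Hspa5 (1.30), Hsp90b1 (1.37), Calr (1.19), Canx (1.34), Pdia4 (1.00) and Pdia6 (1.21). In that setting 1610 of the 5750 genes passed. All of these rest on the libraries labelled HF and pHF, and the part of those libraries in the result was not tested.

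Within one fraction, 1 of the 8 genes was called with folic acid on the main measure, but the count for 80 against 10 μM in total mRNA depended on the measure. In total mRNA, 0 of 8 genes were called between 1.5 and 10 μM (0% of all genes), 0 reached an unadjusted p below 0.05 by limma, and edgeR called 0. Their log2 differences lay between -0.40 for Canx and 0.35 for Pdia6. In polysome mRNA, 0 were called between 1.5 and 10 μM (0.104% of all genes) by limma and 0 by edgeR, and 1 reached an unadjusted p below 0.05, Hsp90b1 at -1.17 ± 0.35 (adjusted p = 0.345, limma). Between 80 and 10 μM in polysome mRNA, 0 were called (0% of all genes) by limma and 0 by edgeR, and 2 reached an unadjusted p below 0.05, Hspa5 at 0.98 ± 0.26 (adjusted p = 0.282, limma) and Xbp1 at 2.03 ± 0.65 (adjusted p = 0.407, limma). Between 80 and 10 μM in total mRNA, 1 was called (6.45% of all genes). This was Calr, which fell by 1.31 on the log2 scale (SE 0.22, adjusted p = 0.0135, limma). The count was 0 without HF replicate 1, MF replicate 1 or MF replicate 2 (0.974%, 0.191% and 0.609% of all genes) and 2 without either pHF library (7.34% and 7.72%), and mean coverage in place of the median gave -0.30 for Calr. At cytosines listed in all 12 libraries 5 of 7 genes were called (65.9% of all genes), and with position-adjusted coverage 5 of 8 (39.2% of all genes).

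Other genes of the same machinery were set beside these. Of 61 listed genes of ER folding, translocation and degradation and of the unfolded protein response, 50 were tested, of which 16 were higher and 6 lower on polysomes (44% called, against 35.1% of all genes) with a median log2 difference of 0.36. Among the largest were the translocon subunit Sec61b (1.60), the BiP nucleotide exchange factor Sil1 (1.59) and the ER lumen protein Erp29 (1.43), all higher. The Hsp70 relative Hspa13 (-1.71) and the sensor kinase PERK, encoded by Eif2ak3 (-1.39), were lower. Of 42 listed chaperones of the cytosol and mitochondria, 37 were tested, of which 14 were higher and 4 lower (48.6% called), with a median of 0.28. Without the 4 libraries labelled HF and pHF, 15 of the ER genes were higher and 10 lower (median 0.17), and 10 of the other chaperones were higher and 6 lower (median 0.09), beside 33.4% of all genes called. The mitochondrial co-chaperonin Hspe1 rose by 1.72 and the inducible cytosolic Hsp90aa1, the counterpart of Hsp90b1, fell by 1.77. Between 80 and 10 μM in total mRNA, 3 of the 50 ER genes were called (6%, beside 6.45% of all genes), Fkbp10 (1.07) and Sil1 (1.03) higher and Vcp (-0.99) lower. Of the 37 cytosolic and mitochondrial chaperones, 7 were called (18.9%, beside 6.45% of all genes), 1 higher and 6 lower, the largest being Tcp1 (-1.58) and Hspe1 (-1.39).

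Over the 12 libraries, the log2 scaled coverage of Hspa5 followed that of Hsp90b1 with r = 0.871, of Canx with r = 0.756 and of Xbp1 with r = 0.666, but that of Pdia4 with r = -0.248 and of Pdia6 with r = -0.375. The 5 genes most like Hspa5 were Polr2b (r = 0.933), Srrm2 (0.933), Ctnna1 (0.929), Cdh2 (0.928) and Tnc (0.925). These values share the libraries, their scaling and the split into fractions and concentrations, and are given as a description.

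The part of the transcript that was read differed between the fractions. To compare the same positions, this was followed at cytosines listed in all 12 libraries, with the median coverage of the 3′ untranslated region (3′UTR) set against that of the coding sequence (CDS). A total of 256 genes had at least 5 such cytosines in each, 5 of them members. This comparison was added after the values were seen. Between polysome and total mRNA the ratio passed the test in 5 of the 5 members, beside 84.8% of all 256 genes, so that a change is no mark of the members. The median log2 difference of all 256 genes was 0.26.

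Of the 5 members, Pdia6 differed most in this ratio. Its 3′UTR was covered at 22.9% and 22.6% (LF), 20.7% and 20.8% (MF), and 18.1% and 23.6% (HF) of its CDS. On polysomes the 3′UTR was covered more than the CDS, at 148% and 175% (pLF), 154% and 167% (pMF), and 158% and 139% (pHF). The log2 difference was 2.87 ± 0.08 (adjusted p = 3.1e-11, limma), and 2 of the 256 genes had a larger one. The value rests on 5 cytosines of the 3′UTR and 124 of the CDS. Those 5 had 554 to 1290 reads in total and 6057 to 14081 in polysome libraries, and the CDS had 2556 to 6200 and 4090 to 9278. On the scaled measure both were higher on polysomes, the 3′UTR at 1.10 to 1.80 in total and 14.7 to 29.1 in polysome mRNA, and the CDS at 5.59 to 8.45 and 9.94 to 16.7.

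In Canx the 3′UTR was covered at 3.54% to 8.90% of the CDS in total and 15.8% to 29.8% in polysome mRNA (log2 difference 1.69 ± 0.13, adjusted p = 1.2e-07, limma). Its CDS stood at 20.0 to 22.4 in total and 9.14 to 16.2 in polysome mRNA on the scaled measure, ranges that did not overlap. In Calr the 3′UTR was covered at 93.7% to 97.4% of the CDS in LF and MF, 36.1% and 35.6% in HF, and 136% to 198% on polysomes (1.29 ± 0.09, adjusted p = 2.8e-08, limma). Hsp90b1 had 104% to 128% in LF and MF, 177% and 183% in HF and 163% to 192% on polysomes (0.42 ± 0.06, adjusted p = 3.0e-05, limma). Hspa5 went the other way, with 48.8% to 72.7% in total mRNA and 31.2% to 40.3% on polysomes (-0.82 ± 0.08, adjusted p = 5.1e-07, limma). This rested on 9 cytosines of the 3′UTR, and its direction depended on the positions. Over all listed cytosines of Hspa5, the median scaled coverage of the 3′UTR was 2.22 in total and 4.94 in polysome libraries. That of the CDS was 6.83 and 3.41, so there the 3′UTR rose against the CDS. At 1.5 μM and at 10 μM alone the 5 were called as well (77.3% and 78.9% of all genes), and at 80 μM 4 were, Hsp90b1 (-0.12) missing the threshold (84.4% of all genes). Between 1.5 and 10 μM the difference did not pass in any of the 5, with 0 genes of 256 called by limma, and between 80 and 10 μM it did in 3 (62.1% of all genes), Calr (1.42), Hsp90b1 (-0.85) and Hspa5 (0.60). The 5 averaged calls held without the libraries labelled HF and pHF and without any single library (81.6% to 87.1% of all genes).

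**Figure D3:**
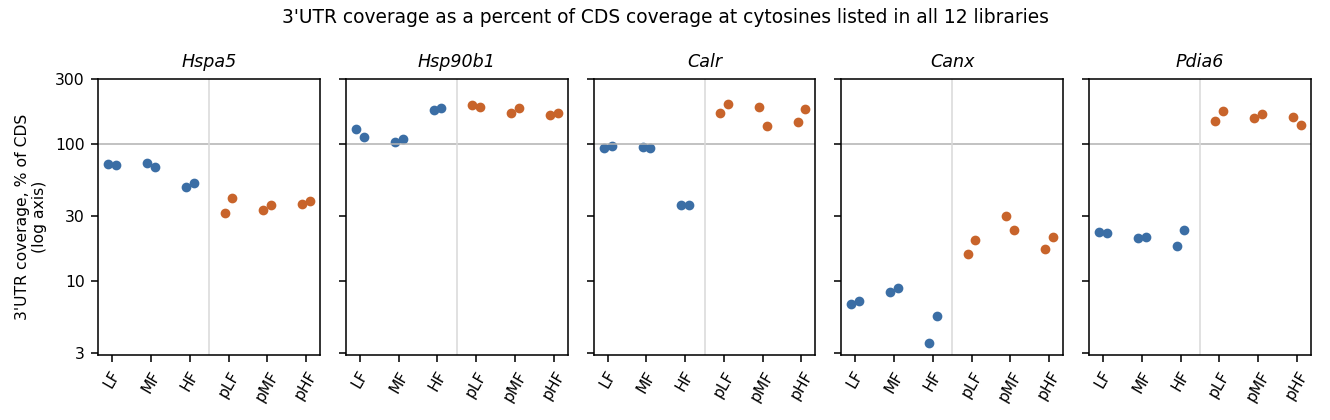
Median coverage of 3′UTR cytosines as a percent of that of CDS cytosines (log axis), at cytosines listed in all 12 libraries, for the 5 genes with at least 5 of them in each part. Blue is total and orange polysome mRNA; each point is 1 library. In Pdia6 the total libraries lie between 18.1% and 23.6% and the polysome libraries between 139% and 175%.

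Pdia3 and Pdia4 had too few shared 3′UTR cytosines for that comparison, but their listed 3′UTR cytosines differed in opposite directions. In Pdia4 the scaled coverage of the 3′UTR was 1.05 to 2.80 in total and 9.44 to 20.0 in polysome libraries, while its CDS had 2.88 to 4.12 and 3.24 to 5.54. In Pdia3 the 3′UTR had 0.971 to 2.16 in total and 0.239 to 0.532 in the 5 polysome libraries with at least 5 cytosines there, while its CDS had 7.16 to 8.71 and 5.52 to 7.52. Neither was tested, as different libraries listed different cytosines.

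Coverage was also uneven along each transcript, here divided into 5 segments of equal length, numbered from the 5′ end. In Hsp90b1, segment 3 was read at 1.62 to 17.7 times the median gene in total and at 0.173 to 1.36 in polysome mRNA, whereas segment 4, 8.78 to 14.4 against 9.21 to 17.3, and segment 5, 14.6 to 31.9 against 10.3 to 34.5, overlapped. In Canx segment 1 was at 4.29 to 10.8 in total and 2.29 to 3.54 in polysome mRNA, and segment 3, 6.66 to 17.8 against 6.68 to 17.0, overlapped. In Pdia6 segment 2 was at 5.18 to 9.14 against 19.4 to 31.7, and segment 1 at 4.50 to 5.96 against 6.24 to 8.94, while segment 3, 6.27 to 10.1 against 7.03 to 11.7, overlapped. In segment 3 both HF libraries (10.1 and 9.92) lay above both pHF libraries (9.13 and 8.96). In Calr segment 1 was at 12.2 to 41.5 against 3.37 to 10.4 and segment 5, in the 3′UTR, at 0.247 to 0.483 against 0.985 to 2.74. In segment 1 of Calr both HF libraries (41.5 and 38.2) lay above both MF libraries (22.4 and 22.3), opposite to the fall called over the gene. They also lay above them in segment 5, and below them in segments 2, 3 and 4. Xbp1 was also uneven. Segment 2 was higher on polysomes, 2.09 to 4.70 against 0.746 to 1.18, while segment 3, 0.141 to 0.309 against 0.204 to 0.641 in 5 total libraries, overlapped. In Hspa5 segment 3, 4.99 to 11.8 in total against 1.86 to 16.3 in polysome mRNA, overlapped. There pHF replicate 1 (3.30) lay below both HF libraries (5.36 and 4.99) and pHF replicate 2 (16.3) above them. Not every segment is given here, and the same was not counted over all genes.

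**Figure D4:**
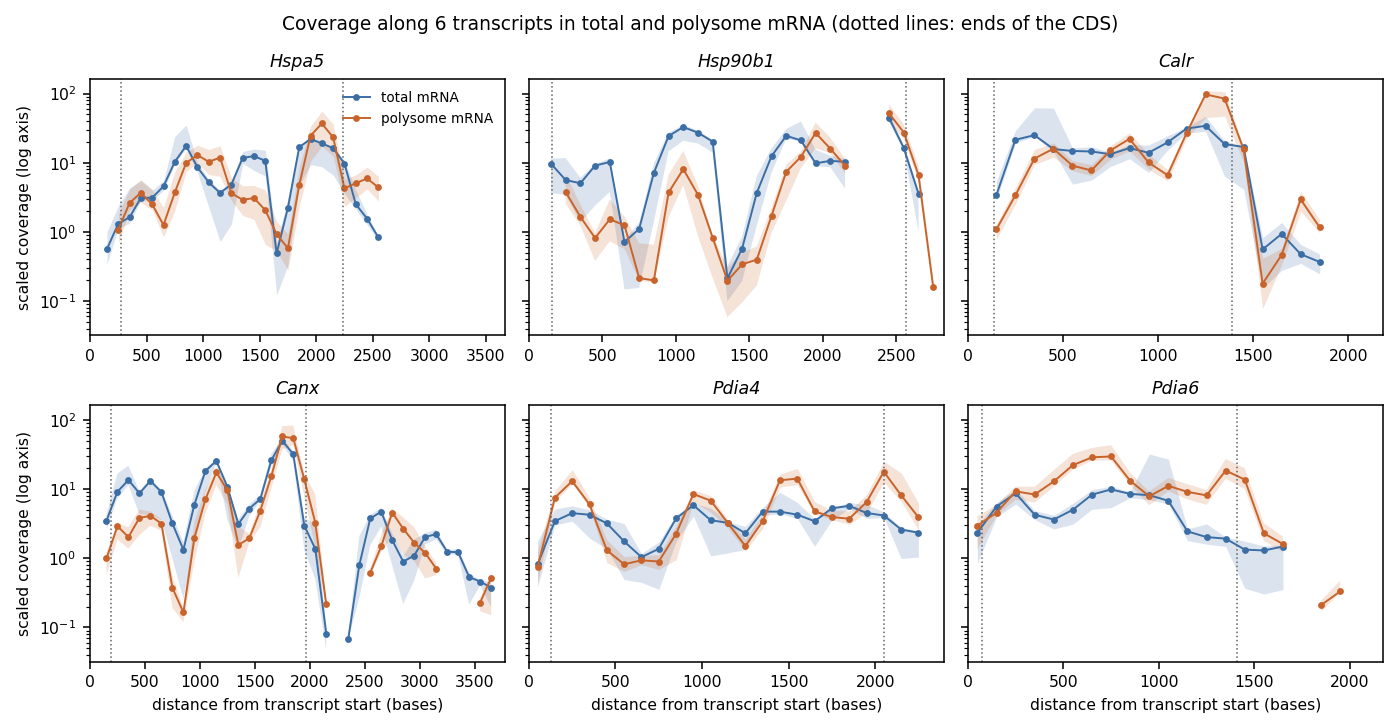
Scaled coverage (log axis) along 6 transcripts in windows of 100 bases from the transcript start, total mRNA in blue and polysome mRNA in orange. Lines are medians over libraries, shading runs from the lowest to the highest library, windows with fewer than 3 libraries are left out, and dotted lines mark the ends of the CDS. Hsp90b1 and Canx were lower on polysomes in the 5′ part of the CDS, while Pdia6 was higher over much of the CDS and at the start of the 3′UTR.

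IRE1 removes a 26-base intron from Xbp1 mRNA in the cytoplasm, and the spliced form encodes the active factor. RefSeq places this intron at chr11:5524278-5524303 of GRCm38.p6 on the + strand, in the CDS. It is shown because it is the stretch that splicing would remove, in capitals with 2 bases of exon on each side in lower case.
Xbp1 intron: ccGCAGCACTCAGACTATGTGCACCTCTgc
It holds 9 cytosines. In HF replicate 1 and pLF replicate 1, 0 of them were listed, and 7 of the other libraries listed 1, 2 listed 2, and 1 (pHF replicate 1) listed 9. The coverage inside was 120 to 414 reads in total mRNA, or 0.814 to 0.961 of the median of listed cytosines within 100 transcript bases on either side in 5 libraries. In polysome mRNA it was 221 to 349 reads, or 1.06 to 1.80 of the flanks in 5 libraries. These ranges depended on the flank. With 50 bases on either side they were 0.828 to 1.04 in total and 0.998 to 1.79 in polysome mRNA. With 200 bases they were 0.667 to 0.837 and 0.293 to 1.99, the lowest values being those of pHF replicate 2 and pMF replicate 1 (0.362). Both overlapped, so no order between the fractions is read from them. Reads without the intron were not counted, since the lists give coverage at single cytosines and hold no splice junctions. A cytosine also needs an unconverted read to be listed, and with 1 cytosine in most libraries no test was run.

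The levels of the members' cytosines were low. Among cytosines with 20 or more reads there were 33914 values of a cytosine in a library, and 99.0% of them were below 0.05. The median level of a gene in a library was 0.0603% to 0.337% for the 7 highly covered genes. It was 0.237% to 2.74% for Xbp1, 0.361% to 1.74% for Sdf2l1 and 0.516% to 3.92% for Dnajb9, for which 1 unconverted read weighs more. At cytosines that reached 20 reads in each of the 12 libraries, the share of unconverted reads was 0.0646% to 0.121% in Calr, 0.0664% to 0.108% in Canx and 0.0718% to 0.0994% in Hsp90b1. It was 0.0819% to 0.167% in Pdia4 and 0.0723% to 0.132% in Pdia6. In Pdia3 it was 0.0772% to 0.103% in LF and MF, 0.107% to 0.177% in pLF and pMF, 0.164% and 0.141% in HF and 0.150% and 0.0694% in pHF. In Hspa5 it was 0.0671% to 0.0831% in LF and MF and 0.150% to 0.172% in pLF and pMF, groups that did not overlap, with 0.122% and 0.123% in HF and 0.120% and 0.0682% in pHF. In Pdia3, Canx and Hsp90b1, too, every pLF and pMF library lay above every LF and MF library. The LF and MF values were 0.0664% to 0.0839% in Canx and 0.0728% to 0.0753% in Hsp90b1. Those of pLF and pMF were 0.0930% to 0.108% and 0.0875% to 0.0959%. In Calr, Pdia4 and Pdia6 these groups overlapped. How many of all genes separate in this way was not counted, so the separation is no mark of the members. Over all listed cytosines with a level below 0.05 the share was 0.139% to 0.148% in LF and MF and 0.176% to 0.191% in pLF and pMF, so it moved in the same direction. The part of conversion, and of the 1-read minimum for listing, in the member values was not tested.

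A cytosine was called where it had 20 or more reads, of which 6 or more were unconverted, and its level reached 0.1. In the 10 genes, 0 cytosines met this in both replicates of any group, against 4178 cytosines in 1981 genes in the whole series, of which 1506 were among the 5750 genes tested above. Fisher's exact test on pooled reads therefore had 0 member cytosines in each comparison. Over all genes it called 68% of 456 cytosines between polysome and total mRNA at 1.5 μM, 55.8% of 378 at 10 μM and 79% of 504 at 80 μM. For folic acid it called 2.29% of 1050 (LF against MF), 94.8% of 1073 (HF against MF), 21.1% of 545 (pLF against pMF) and 18.5% of 399 (pHF against pMF). These cytosines passed only the coverage, level and read limits. The study's further filters, among them the one for incompletely converted reads, were not applied. After them the study kept far fewer sites and reported few that differed with folic acid. The shares given here therefore do not describe its m5C sites. Of cytosines with 20 or more reads, 0.314% and 0.287% met the limits in HF, against 0.0675% to 0.0758% in LF and MF. Pooled reads leave out the spread between libraries. On the log odds of the levels in each library, limma called 218, 104 and 335 cytosines in the comparisons of fractions in the same order, and 0 (LF against MF), 982 (HF against MF), 6 (pLF against pMF) and 0 (pHF against pMF).

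The filter was met in a single library by 6 cytosines, of which 5 are described here. Of all cytosines with 20 or more reads, 0.0675% to 0.496% in a library met it, and of those of the members 0% to 0.154%. The highest member share was that of pLF replicate 1, where it was 0.182% over all. They were picked after their values were seen and were not tested. Each is printed with 10 bases on either side and the cytosine in capitals.
Hspa5, chromosome 2 position 34775622: tcctgctcccCgtggagttcc
Pdia3, chromosome 2 position 121437591: ttcagggtggCcgtgaattaa
Pdia3, chromosome 2 position 121437592: tcagggtggcCgtgaattaaa
Canx, chromosome 11 position 50296208: taggagagggCctggtgtacc
Xbp1, chromosome 11 position 5525727: cctgagggggCttgttttccc
The Hspa5 and Pdia3 cytosines lie in the CDS, and the Canx and Xbp1 cytosines in the 3′UTR. In the Hspa5 cytosine the level was 0.108% to 0.280% in LF and MF at a coverage of 1540 to 2145, 0.562% and 0.392% in HF, and 10.1%, 3.40%, 3.76% and 6.06% in the pLF and pMF libraries at a coverage of 69 to 235. It was 0.877% in pHF replicate 1 and was not listed in pHF replicate 2. The neighbouring Pdia3 cytosines had 0.185% to 0.617% in the LF and MF libraries that listed them, 2.44% to 6.22% in HF and 3.62% to 13.3% in pLF, pMF and pHF replicate 1, again at a lower coverage (74 to 200 against 745 to 1079 in LF and MF). The Canx 3′UTR cytosine had 6.67% and 12.9% in HF and 0.110% to 1.24% in the LF and polysome libraries, and was not listed in the MF libraries. The Xbp1 cytosine had 82.9%, or 29 of 35 reads, and 100% of 15 reads in the libraries labelled HF, and 5.26%, or 1 of 19 reads, in pMF replicate 1. Reads that the study's filter for incompletely converted reads would remove are still counted in these levels.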

How the data were processed

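The deposited files list, for each of the 12 RNA BS-seq libraries, cytosines with their coverage and unconverted reads as counts and the level as a fraction. Per the study's methods, the authors used fastp for trimming and the meRanTK tools meRanGh (alignment to mm10) and meRanCall (cytosine calls). Source code given with the study names meRanAnnotate for the gene annotation. The RNA fragmentation step was skipped when libraries were built from the bisulfite-converted RNA. The 3C filter for incompletely converted reads had not been applied to these lists. Since a cytosine is listed only with an unconverted read, the listed stretch of a gene varies between libraries, which can move its coverage.

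The 10 genes, the lists of ER genes and of cytosolic and mitochondrial chaperones and the tests were chosen with earlier results of these data known. Scaled coverage is the median coverage of a gene's cytosines with a level below 0.05 over the median of all genes tested (at least 20 cytosines in each library, 5750 genes). Its log2 was fitted with limma 3.58.1 (R 4.3.3, trended variance) over all 12 libraries with the 6 groups as terms, and p-values were adjusted by Benjamini-Hochberg over all genes tested, with a threshold of 0.05. The fit was tested on simulated data. Levels were compared by Fisher's exact test on counts pooled over replicates, for cytosines that passed the coverage, level and read limits in both replicates of a group. The text names every member and, per list and comparison, up to 5 called genes with the largest differences. Replicate numbers were not used to pair the libraries in the main fit. Alternatives were edgeR 4.0.16 on rounded median counts, other minimums, mean coverage, TMM and quantile scaling, shared cytosines, the replicate block and leaving out libraries. Python 3.11.15 with pandas 2.3.3, numpy 2.4.6 and scipy 1.17.1 was used. Gene coordinates follow GRCm38 (GENCODE vM21). Intervals for single levels were not computed, and reads without molecular identifiers are not independent molecules. A marker gene and a cytosine are not reported here.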

Additional observations from a re-analysis of the deposited data

Results flagged for a closer look

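The difference in 3′UTR over CDS coverage between polysome and total mRNA was not the same at 80 and at 10 μM folic acid for 3 of the 5 members with enough shared cytosines, by the interaction term of limma over 256 genes, of which 62.1% passed as well. For Calr the interaction was 1.42 ± 0.21 on the log2 scale (adjusted p = 0.000134, limma), with 94.9% and 93.7% in MF, 36.1% and 35.6% in HF, 186% and 136% in pMF, and 145% and 181% in pHF. For Hsp90b1 it was -0.85 ± 0.15 (adjusted p = 0.000381, limma), with 104% and 109% in MF, 177% and 183% in HF, 170% and 184% in pMF, and 163% and 169% in pHF. For Hspa5 it was 0.60 ± 0.19 (adjusted p = 0.0143, limma), with 72.7% and 68.6% in MF, 48.8% and 52.3% in HF, 33.0% and 36.0% in pMF, and 36.4% and 38.4% in pHF, and it missed the threshold without MF replicate 1 (adjusted p = 0.0543, limma) or HF replicate 1 (adjusted p = 0.0507, limma). In each of the 3 genes the HF libraries lay apart from the MF libraries, while the pMF and pHF libraries lay nearer to each other. These libraries labelled HF also stood apart over all genes, and their part in the result was not tested.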

How the results depend on the processing

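Of the polysome against total calls averaged over folic acid, Pdia6 was kept under 24 of 24 alternatives, Hsp90b1 under 23, Hspa5 under 22, Canx under 12, Pdia4 under 11 and Pdia3 under 10. The direction turned for Hspa5 with position-adjusted coverage (0.0478) and for Calr at 10 μM with mean coverage (0.0627), and the cause was not tested. The number of members called moved as follows, with the share of all genes called in parentheses. With position-adjusted coverage it was 1 for pLF against pMF (0.122%), 5 for HF against MF (39.2%), 4 at 1.5 μM (47.8%), 4 at 80 μM (49.5%) and 6 for the interaction at 80 μM (28.0%). At cytosines listed in all 12 libraries, where 7 members of 657 genes were tested, it was 1 for pHF against pMF (0.761%), 5 for HF against MF (65.9%), 6 at 1.5 μM (64.8%), 5 at 80 μM (71.5%) and 4 for the interaction at 80 μM (54.5%). With CDS cytosines only it was 2 for HF against MF (17.3%) and 2 for that interaction (9.65%). With only the groups of the comparison in the fit, and so fewer samples, it was 2 for HF against MF (9.11%) and 0 at 1.5 μM (0%). With mean coverage it was 4 at 80 μM (45.4%) and 4 for the interaction (16.1%), with quantile scaling 4 at 1.5 μM (13.2%), 2 at 80 μM (14.1%) and 1 for the interaction (4.16%), and with a minimum of 5 cytosines 2 at 80 μM (13.5%). Leaving out 1 library, with a lone library assumed to vary like the other groups, gave 3 to 5 for the averaged comparison (26.1% to 37.2%), 1 to 3 at 1.5 μM (2.63% to 16.5%), 0 to 5 at 10 μM (1.57% to 17.9%), 1 to 2 at 80 μM (5.69% to 17.6%), 0 to 2 for HF against MF (0.191% to 8.77%) and 0 to 2 for the interaction at 80 μM (0% to 3.41%), and 2 to 3 for that interaction of the 3′UTR over CDS coverage (53.1% to 64.1%). It gave 0 to 2 member cytosines called on level between polysome and total mRNA, the 2 without pLF replicate 2, where 410 of all 611 cytosines were called. With 50 bases on either side in place of 100, the median of the Xbp1 intron in total mRNA was 0.924 of its flanks. Same-numbered libraries did not deviate together (correlations from -0.0545 to 0.0437). Such a check cannot exclude that they were paired, since noise in the coverage could hide it, and the main fit did not pair them. With the replicate block, 5 members were called in the averaged comparison (34%) and 3 at 10 μM (12.1%). Since cytosines without an unconverted read are not listed, low coverage limits Xbp1, Sdf2l1 and Dnajb9 most.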
